A study of Mus musculus with 8 samples.

Results

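The genes described here are 10 genes of fatty acid synthesis, elongation and desaturation, Acly, Acaca, Acacb, Fasn, Elovl6, Hsd17b12, Scd1, Scd2, Fads1 and Fads2, of 54146 genes in the files. They were found by their symbol, and all 10 were matched in all 8 libraries. Hsd17b12 was selected because its measured RNA level was lower in GSTM1 knockdown, so its difference between knockdowns is described without a test, and the other 9 were taken by name as genes of the same pathway. RNA-seq libraries were made from astrocytes enriched from mixed glia of the cortices of C57BL/6 pups of postnatal days 2 to 5. Mixed glia carried a lentiviral shRNA against Gstm1 (GSTM1 KD) or a non-silencing shRNA (control KD), were selected with puromycin, and were then shaken and depleted of CD11b-positive cells. Each knockdown was left unstimulated (basal) or was given TNF-α at 50 ng/ml for 6 h, which gave 4 groups of 2 libraries. The study calls the libraries of a group biological replicates without saying what separated them, a flask held cells of more than 1 brain, and p-values measure only the spread between these libraries. Infection came before stimulation, and the sources do not say whether basal and stimulated libraries came from separately infected cultures. The states are therefore not known to be independent repeats of the knockdown.

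Fatty acids are built in the cytosol from acetyl-CoA, which ATP citrate lyase (Acly) makes from citrate. Acetyl-CoA carboxylase (Acaca, Acacb) turns it into malonyl-CoA, and fatty acid synthase (Fasn) joins these units into palmitate. At the endoplasmic reticulum, elongases such as Elovl6 and the 3-ketoacyl-CoA reductase encoded by Hsd17b12 lengthen the chain, stearoyl-CoA desaturases (Scd1, Scd2) place the first double bond, and Fads1 and Fads2 place the further double bonds of polyunsaturated fatty acids. Astrocytes make a large share of the lipid used in the brain, and many of these genes are known targets of the transcription factor SREBP-1c, which works together with NF-Y and Sp1.

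The promoters of Fasn, Acly and Hsd17b12 are printed because Fasn passed the test in both states, Acly came next by p-value among the genes tested, and Hsd17b12 had the largest difference of the 10 between knockdowns. Each run is the 300 bases from 250 before to 50 after the gene's start in RefSeq (GRCm38.p6), in the direction of the gene, and capitals mark the NF-Y box CCAAT or its reverse complement ATTGG. The Fasn promoter lies at chr11:120824498-120824797, the Acly promoter at chr11:100527951-100528250 and the Hsd17b12 promoter at chr2:94157860-94158159, all on the minus strand.
Fasn: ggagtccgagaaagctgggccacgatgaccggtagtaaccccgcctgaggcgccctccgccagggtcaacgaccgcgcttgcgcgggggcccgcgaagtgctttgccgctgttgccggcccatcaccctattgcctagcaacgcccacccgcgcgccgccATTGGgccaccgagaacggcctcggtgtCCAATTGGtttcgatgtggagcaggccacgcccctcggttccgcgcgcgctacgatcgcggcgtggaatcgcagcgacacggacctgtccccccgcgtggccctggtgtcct
Acly: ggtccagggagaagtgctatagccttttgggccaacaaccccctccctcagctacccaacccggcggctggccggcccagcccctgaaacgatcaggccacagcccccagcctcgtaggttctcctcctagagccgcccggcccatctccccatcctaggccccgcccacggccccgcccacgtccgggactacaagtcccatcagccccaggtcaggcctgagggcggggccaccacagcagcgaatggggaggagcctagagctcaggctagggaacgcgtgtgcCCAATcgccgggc
Hsd17b12: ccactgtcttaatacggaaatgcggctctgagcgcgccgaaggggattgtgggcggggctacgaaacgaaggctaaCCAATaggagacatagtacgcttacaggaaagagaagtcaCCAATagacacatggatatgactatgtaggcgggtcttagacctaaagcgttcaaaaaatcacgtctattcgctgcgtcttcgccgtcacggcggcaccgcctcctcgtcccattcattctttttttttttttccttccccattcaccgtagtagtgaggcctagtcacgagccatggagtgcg
The Fasn promoter held 3 such boxes, beginning 90, 62 and 59 bases before the start, and the last pair of them overlap. The Hsd17b12 promoter held 2, beginning 174 and 134 bases before the start, and the Acly promoter held 1, within the transcribed part. Of the 10 genes, 7 had a promoter in the RefSeq table, all except Scd1, Scd2 and Fads1, and 4 of the 7 (Acacb, Acly, Fasn and Hsd17b12) held the NF-Y box, against 37.4% of 32851 mouse promoters of the same length. The RefSeq starts of Acaca and Acacb lie 65766 and 18983 bases inside the GENCODE genes whose positions are given below, so these windows, one of them with an NF-Y box, are not at the GENCODE start, whereas the other 5 starts lie within 243 bases of it. The Sp1 box GGGCGG was found in 3 of the 7 (Acly, Fads2 and Hsd17b12), against 35.7% of all promoters, and 4 times in that of Acly. The sterol regulatory element TCACNCCAC (1.24% of all promoters) and the E-box CACGTG (7.15%) were found in none of the 7. Both strands were searched for each motif, no match of one motif overlapped a match of another, and a match describes letters only.

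The libraries held 17349682 to 34434615 expected counts, which are RSEM's estimates of the reads of each gene, and 19371 to 21557 of the genes had a count. Gstm1, the target of the knockdown, was at 231 and 377 CPM in control KD, against 29.0 and 31.4 CPM in GSTM1 KD without stimulation, and at 209 and 391 against 24.3 and 23.3 CPM after TNF-α. CPM are counts scaled to a common library total with edgeR's TMM factors. At an adjusted p under 0.05 by edgeR's quasi-likelihood test, 1524 genes differed between knockdowns without stimulation and 2360 after TNF-α. The astrocyte label was checked on 9 markers, all of which were above 3 counts in every library. Their summed TPM (the share of a library's transcripts, a level per length) was 1583 and 3787 in control KD, against 3650 and 5724 in GSTM1 KD without stimulation. After TNF-α it was 1581 and 3643 against 3496 and 5420. Gfap alone was at 651 to 4184 TPM, and the other 8 markers together overlapped between knockdowns, at 877 and 1582 against 1317 and 1540 TPM without stimulation and at 930 and 1627 against 1352 and 1592 TPM after TNF-α. Of the 9 markers, all tested, edgeR called 0 higher in either state, beside 4.60% and 7.26% of all genes. It called 1 lower in each state, S100b, beside 5.62% and 8.92% of all genes. S100b fell in GSTM1 KD by 1.44 and 1.71 on the log2 scale (adjusted p by edgeR 0.0269 and 0.0387). Single astrocyte markers went both ways in CPM. Gfap, Aldh1l1, Aldoc, Slc1a2 and Gja1 lay higher in GSTM1 KD without overlap in both states, beside 32.3% and 34.7% of all genes. The mean of Aldh1l1 was 2.07-fold and 2.37-fold higher, and that of Gja1 1.287-fold and 1.065-fold. S100b and Sox9 lay lower without overlap, beside 31.2% and 31.9% of all genes, and Aqp4 and Slc1a3 overlapped. Summed oligodendrocyte lineage markers ran from 482 to 678 TPM in control KD and from 399 to 510.3 TPM in GSTM1 KD. Of these 10 markers, 7 were tested, and Mog and Mag were at 0 to 2 counts. Of the 7, 1 was called lower without stimulation (Olig2), beside 5.62% of all genes. After TNF-α 2 were called lower (Olig1 and Olig2), beside 8.92% of all genes. Endothelial markers summed to 5.38 to 7.90 TPM in control KD and to 2.64 to 4.56 TPM in GSTM1 KD, with Cldn5 at 0 and none of the 2 tested between knockdowns called, of 5. Microglia markers summed to at most 7.0 TPM and neuron markers to 168 to 232 TPM, with none called of the 3 of 8 and the 4 of 7 that were tested between knockdowns. Of the neuron markers, Stmn2 was at 85.8 to 134.5 TPM and Tubb3 at 69.5 to 94.65 TPM. Gad1 was at 1.57 to 6.01 TPM, and Rbfox3, Snap25, Syt1 and Slc17a7 at 0 to 0.49 TPM. Fibroblast and mural markers summed to 59.8 to 145 TPM. Of the 4 of 5 tested, Col1a2 was called lower in both states (5.62% and 8.92% of all genes) and Pdgfrb higher after TNF-α (7.26%). The part of these marker differences in the results below was not tested.

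Per length, Scd2 was the most abundant of the 10 genes, with a mean of 522 TPM over the 8 libraries. It was followed by Fads2 (261 TPM), Hsd17b12 (163 TPM), Fads1 (132 TPM), Acly (104 TPM), Fasn (95.5 TPM), Scd1 (55.4 TPM), Acaca (14.8 TPM), Elovl6 (14.6 TPM) and Acacb (0.344 TPM). Together the 10 genes made up 0.0891% to 0.178% of all TPM in a library. In control KD without stimulation the libraries overlapped between the neighbours Scd2 and Fads2, Fads2 and Hsd17b12, and Acaca and Elovl6. Within each of these libraries Scd2 lay above Fads2 and Acaca above Elovl6, whereas Fads2 and Hsd17b12 changed order between the libraries. Hsd17b12 held the third place there, at 217 ± 4.37 TPM (SD, n = 2), and the sixth place in GSTM1 KD without stimulation, at 85.5 ± 3.11 TPM. In GSTM1 KD without stimulation the libraries of Fasn (132 ± 23.3 TPM) and Acly (125 ± 19.7 TPM) overlapped, and those of Acly and Fads1 (116 ± 2.66 TPM) also did. Of the 2 forms of acetyl-CoA carboxylase, the cytosolic Acaca was listed at 30.1 to 80.0 times the TPM of Acacb, the form at the outer mitochondrial membrane. RSEM's effective length, by which TPM is divided, varied between 3406 and 7671 bases for Acacb, on 15 to 38 counts. For Acaca it varied between 5866 and 6880 bases, so this ratio also carries these estimates.

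**Figure D1:**
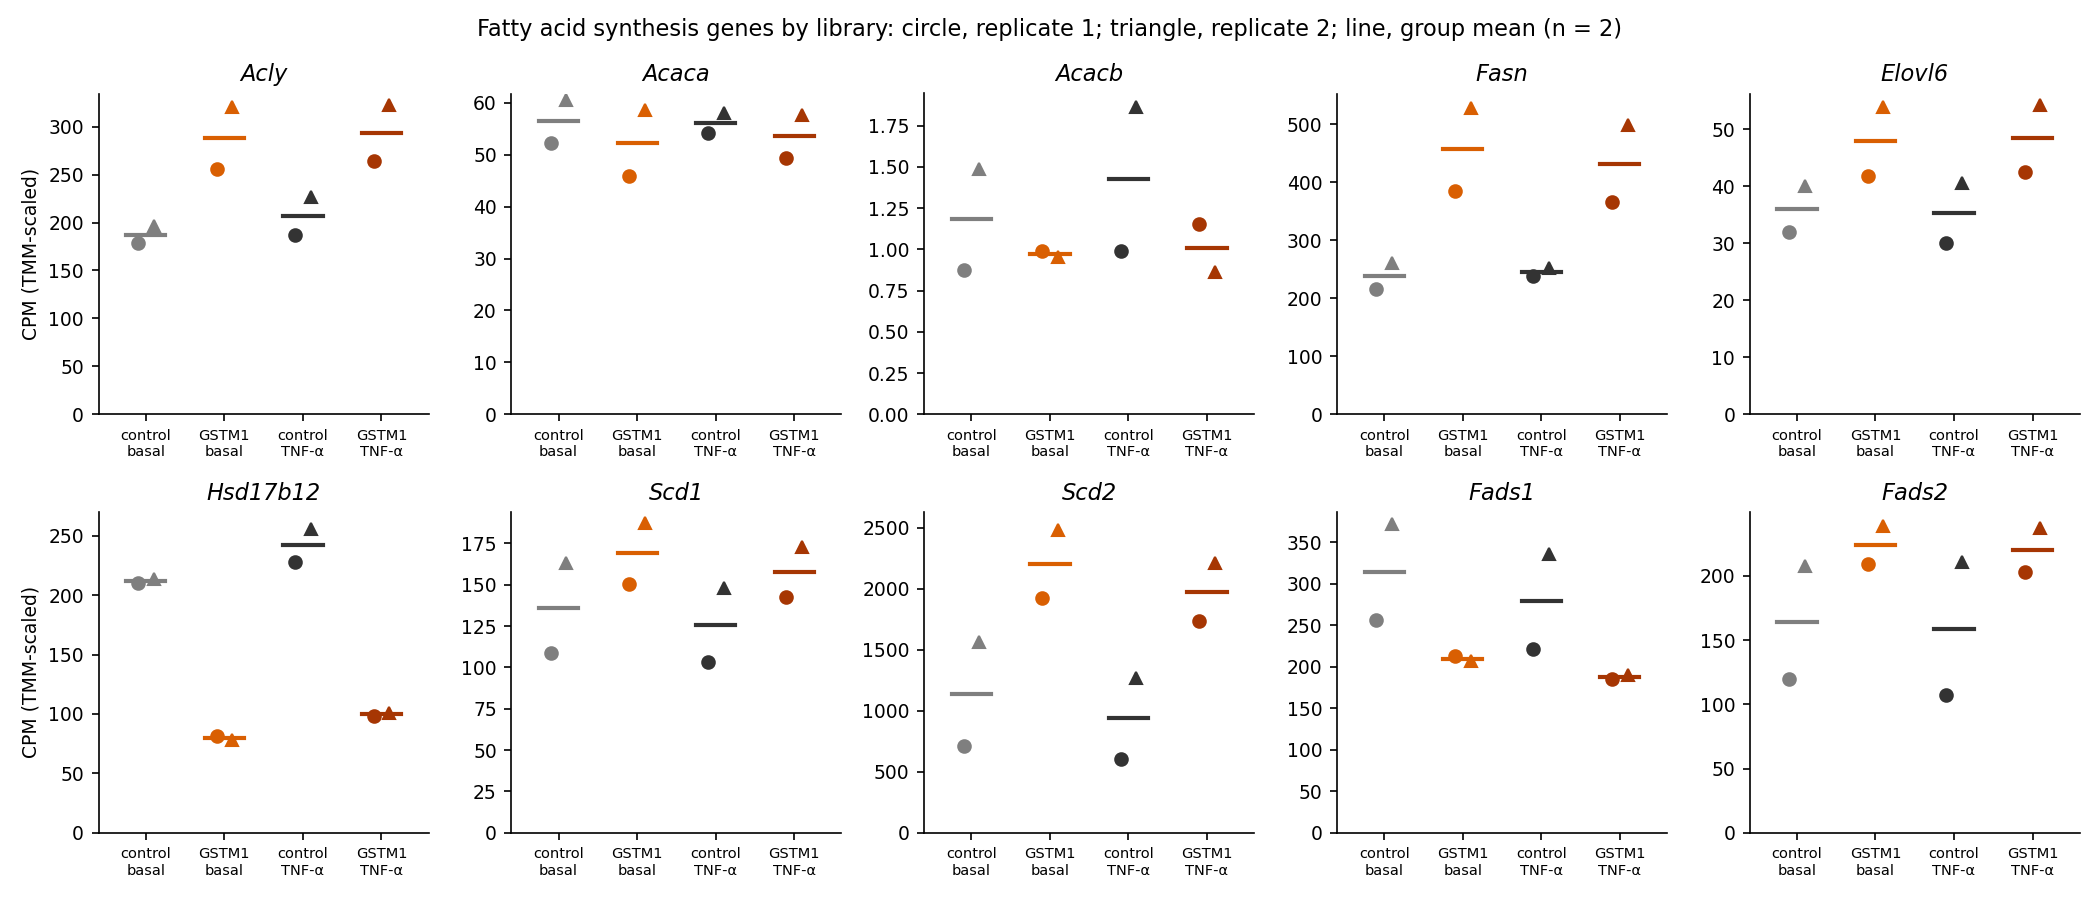
Level of each of the 10 genes in CPM (vertical axis, from 0) in the 4 groups, control KD and GSTM1 KD in both states; circles are replicate 1, triangles replicate 2 and lines the mean of 2 libraries. Fasn and Acly lie higher in GSTM1 KD than in control KD in both states, Hsd17b12 and Fads1 lie lower, and Acaca overlaps.

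Hsd17b12 (ENSMUSG00000027195.10, GRCm38 chr2:94032689-94157964, minus strand), whose product carries out the first reduction step of the elongation cycle, had little spread within any group. It stood at 209.9 and 213 CPM in control KD and at 81.7 and 77.6 CPM in GSTM1 KD without stimulation. After TNF-α it stood at 228 and 256 CPM in control KD and at 98.7 and 101 CPM in GSTM1 KD. All 4 GSTM1 KD libraries were thus below all 4 control KD libraries, though the states are not known to be independent repeats of the knockdown. The log2 fold change was -1.41 (SE 0.104) without stimulation and -1.30 (SE 0.104) after TNF-α, and these values are those that selected the gene. In mean CPM the difference came to 2.66-fold and 2.43-fold, on 1550 to 7422 counts per library. No 100-base word of its transcripts was shared with another gene. Fewer cells of a type and less RNA per cell cannot be told apart in such bulk libraries, here or below.

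Fasn was the only gene of the other 9 that passed edgeR's test, and it rose in both states. Fasn (ENSMUSG00000025153.9, GRCm38 chr11:120805846-120824547, minus strand) was at 216 and 259.9 CPM in control KD and at 385 and 528 CPM in GSTM1 KD without stimulation. After TNF-α the values were 237 and 252 CPM against 365 and 498 CPM. Both GSTM1 KD libraries exceeded both control KD libraries in each state, and the mean CPM was 1.92-fold and 1.76-fold higher. The log2 fold change was 0.94 (SE 0.19, adjusted p = 0.0404 by edgeR's quasi-likelihood test) without stimulation and 0.79 (SE 0.17, adjusted p = 0.0352) after TNF-α. Over the 8 other settings the adjusted p of Fasn ran from 1.90e-08 to 0.0433 without stimulation and from 1.17e-07 to 0.0420 after TNF-α. The call rests on both GSTM1 KD libraries of a state. Without replicate 1 or replicate 2 of GSTM1 KD the adjusted p was 0.105 or 0.285 in unstimulated cells and 0.0754 or 0.226 after TNF-α, and in those fits at most 94 of all genes passed.

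Acly (ENSMUSG00000020917.17, GRCm38 chr11:100476353-100528000, minus strand), which supplies acetyl-CoA, was at 178 and 196 CPM in control KD and at 256 and 321 CPM in GSTM1 KD without stimulation. With TNF-α it was at 187 and 227 CPM against 264 and 323 CPM. The groups did not overlap in either state, but the log2 fold changes of 0.62 (SE 0.15) and 0.48 (SE 0.15) missed the threshold in edgeR (adjusted p = 0.0556 and 0.0815). DESeq2, the tool of the study, gave Acly an adjusted p of 0.00667 without stimulation and 0.0402 after TNF-α. Over the 8 other settings its adjusted p ran from 0.000612 to 0.0597 and from 0.00330 to 0.0812.

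The genes of the step between Acly and Fasn did not pass the test. Acaca (ENSMUSG00000020532.18, GRCm38 chr11:84129672-84401651, plus strand) was at 52.2 and 60.6 CPM in control KD, against 46.0 and 58.5 CPM in GSTM1 KD without stimulation, and at 54.1 and 57.9 against 49.4 and 57.6 CPM after TNF-α. Its groups overlapped in both states, with log2 fold changes of -0.11 (SE 0.16) and -0.09 (SE 0.11). Of the 100-base words of its transcripts, 23.7% also occur in other genes, among them the gene model Gm5182. Its expected counts were not whole, and the opposite strand of its locus holds Gm11437. Acacb (ENSMUSG00000042010.16, GRCm38 chr5:114146535-114250761, plus strand) had only 15 to 38 counts in a library. Its log2 fold changes were -0.27 (SE 0.40) without stimulation and -0.49 (SE 0.45) after TNF-α, with overlapping groups. Within a library, the TPM ratio of Fasn to Acaca was 4.03 to 5.18 in the 4 control KD libraries and 7.34 to 9.35 in the 4 GSTM1 KD libraries. RSEM's effective length of Fasn, by which TPM is divided, varied between 5501 and 6789 bases, so this ratio also carries that estimate.

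Elovl6 (ENSMUSG00000041220.10, GRCm38 chr3:129532355-129638495, plus strand) lengthens palmitate to stearate, the step after Fasn. It was at 32.0 and 40.1 CPM in control KD and at 41.8 and 54.0 CPM in GSTM1 KD without stimulation, and at 30.2 and 40.6 against 42.5 and 54.4 CPM after TNF-α. The groups did not overlap, though by a small gap, and the log2 fold changes of 0.41 (SE 0.18) and 0.43 (SE 0.19) did not pass the test (adjusted p by edgeR 0.183 and 0.166). The log2 fold changes were 0.25 and 0.23 without replicate 1 of control KD and 0.20 and 0.25 without replicate 2 of GSTM1 KD. They were 0.57 and 0.66 without replicate 2 of control KD, where Elovl6 passed edgeR's test. An antisense gene, Gm35986, overlaps Elovl6, and the strand setting of the counting is not given in the sources used here.

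None of the 4 desaturases passed edgeR's test in either state. With the replicate number as a block, which is not known to pair cultures, all 4 passed without stimulation, and Scd2 and Fads1 after TNF-α. Of the 8 other settings, the block among them, Scd2 passed in 2 in each state. Fads2 passed in 2 of the 8 without stimulation and in 1 after TNF-α. Scd2 (ENSMUSG00000025203.5, GRCm38 chr19:44293674-44306864, plus strand), the form of stearoyl-CoA desaturase known as the main one in brain, was at 713 and 1565 CPM in control KD and at 1926 and 2479 CPM in GSTM1 KD without stimulation. In stimulated cells it was at 602 and 1271 CPM against 1733 and 2209 CPM. The groups did not overlap, with a mean 1.93-fold and 2.10-fold higher in GSTM1 KD, but the control KD libraries lay far apart. The log2 fold changes were 0.95 (SE 0.37, adjusted p = 0.151 by edgeR) and 1.05 (SE 0.35, adjusted p = 0.0963). Over the 8 other settings the adjusted p of Scd2 ran from 9.52e-10 to 0.271 without stimulation and from 2.05e-15 to 0.166 after TNF-α. Without replicate 2 of control KD the log2 fold change was 1.62 in unstimulated cells and 1.69 after TNF-α, where Scd2 passed edgeR's test (adjusted p = 0.000493 and 0.000910), and without replicate 1 it was 0.49 and 0.61. The astrocyte marker sum given above was higher in replicate 2 than in replicate 1 in all 4 groups. The same held for Scd2, Scd1, Acly, Acaca, Fasn, Elovl6 and Fads2, 7 of the 10 genes, beside 20.3% of all genes, and for the summed fibroblast and mural markers. Summed microglia and neuron markers were lower in replicate 2 in all 4 groups. The part of these marker levels in the differences of the 10 genes was not tested.

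Scd1 (ENSMUSG00000037071.2, GRCm38 chr19:44394455-44407879, minus strand), a neighbour of Scd2 at a distance of 87590 bases, was at 109 and 163 CPM in control KD and at 151 and 187 CPM in GSTM1 KD without stimulation. Stimulated libraries held 103 and 148 against 142 and 173 CPM, and the groups overlapped in both states. Its log2 fold changes were 0.31 (SE 0.22) and 0.30 (SE 0.19). They moved to 0.046 and 0.070 without replicate 1 of control KD, to 0.63 and 0.59 without replicate 2 of control KD (a call by edgeR), and to 0.14 and 0.16 without replicate 2 of GSTM1 KD. The TPM ratio of Scd2 to Scd1 was 5.15 to 8.45 in the control KD libraries and 10.7 to 11.7 in the GSTM1 KD libraries. Scd1 shared 2.58% and Scd2 0.879% of their 100-base words with other genes, mostly of the Scd family, and both had expected counts that were not whole.

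Fads1 and Fads2 lie 81141 bases apart on chromosome 19, and neither passed edgeR's test. Fads1 (ENSMUSG00000010663.4, GRCm38 chr19:10182888-10196877, plus strand), the delta-5 desaturase, was at 257 and 372 CPM in control KD and at 213 and 207 CPM in GSTM1 KD without stimulation. After TNF-α it was at 221 and 336 CPM against 185 and 189.6 CPM. The GSTM1 KD libraries lay below the control KD libraries in both states and were close together. The log2 fold changes were -0.58 (SE 0.19, adjusted p = 0.105 by edgeR) and -0.60 (SE 0.20, adjusted p = 0.0963). DESeq2 gave Fads1 an adjusted p of 0.0312 without stimulation and 0.0293 after TNF-α, within ranges of 0.000417 to 0.117 and 0.000125 to 0.114 over the 8 other settings. With replicate 2 of control KD left out the log2 fold changes were -0.30 and -0.26, and with replicate 1 of control KD left out they were -0.83 and -0.86, where Fads1 passed edgeR's test.

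Fads2 (ENSMUSG00000024665.7, GRCm38 chr19:10062765-10101746, minus strand), the delta-6 desaturase that acts before Fads1, was at 120.1 and 207 CPM in control KD and at 209 and 239 CPM in GSTM1 KD without stimulation. After TNF-α the values were 107 and 210.5 against 203 and 238 CPM. The groups overlapped after TNF-α and were separated by a narrow gap without stimulation, and the log2 fold changes were 0.45 (SE 0.26) and 0.45 (SE 0.31). Without replicate 1 of control KD they were 0.11 and 0.045, and without replicate 2 of control KD they were 0.89 and 1.02, where Fads2 passed edgeR's test. The TPM ratio of Fads2 to Fads1 within a library did not overlap between knockdowns. It was 1.18 and 1.41 in control KD, against 2.48 and 2.94 in GSTM1 KD without stimulation, and 1.22 and 1.59 against 2.78 and 3.16 after TNF-α. This ratio combines the differences of the single genes given above. How often ratios of other gene pairs separate in this way was not counted, here or for Scd2 to Scd1 and Fasn to Acaca. Neither Fads1 nor Fads2 shared a 100-base word with another gene.

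**Figure D2:**
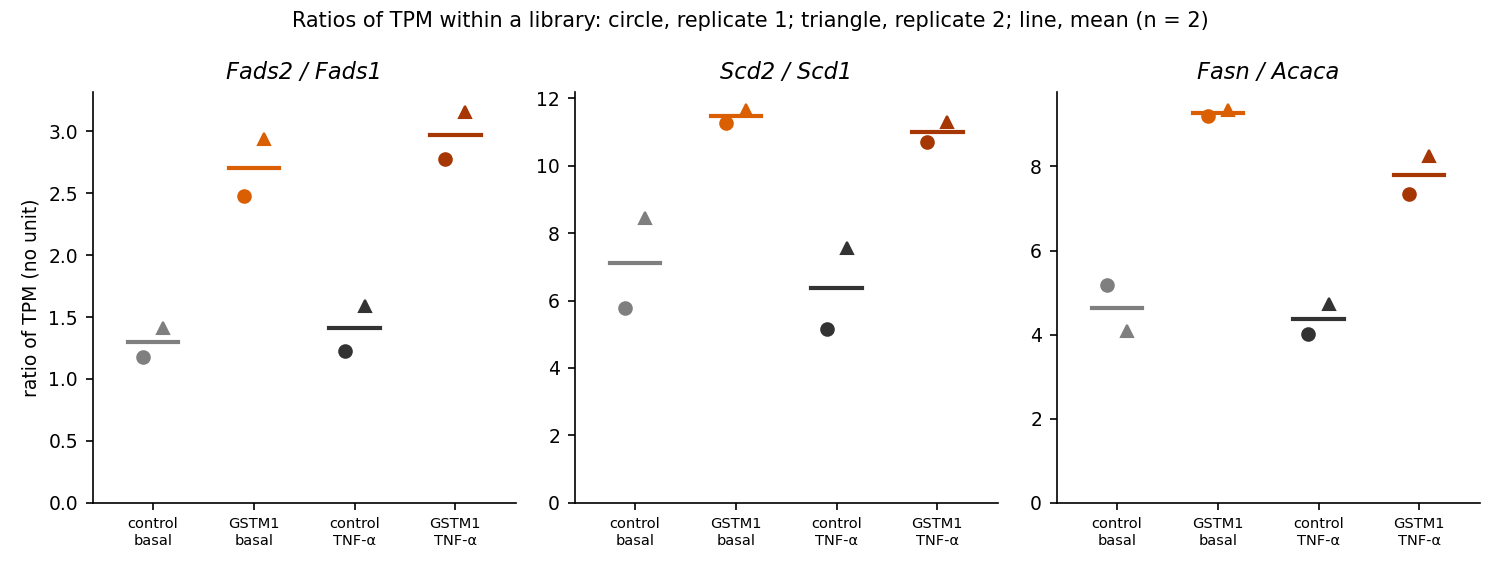
Ratio of TPM of Fads2 to Fads1, Scd2 to Scd1 and Fasn to Acaca (vertical axes, no unit, from 0) in each library of the 4 groups; circles are replicate 1, triangles replicate 2 and lines the mean of 2 libraries. In each panel the 4 GSTM1 KD libraries lie above the 4 control KD libraries, for Fads2 to Fads1 at 2.48 to 3.16 against 1.18 to 1.59. How often other gene pairs separate in this way was not counted.

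All 10 genes passed the filter on low counts in both states. Of the 9 that were not selected on this comparison, 1 passed edgeR's test without stimulation and 1 after TNF-α, Fasn each time, which is near the share of all genes tested, 10.2% and 16.2%. By direction, 1 of 9 rose, beside 4.60% of all genes without stimulation and 7.26% after TNF-α, and 0 of 9 fell, beside 5.62% and 8.92%. At an unadjusted p under 0.05 by edgeR, 4 of the 9 counted in each state, beside 31.6% of all genes without stimulation and 36.2% after TNF-α. Of these 4, 3 were higher (Acly, Fasn and Scd2) and 1 was lower (Fads1). Of all genes, 15.3% were higher and 16.3% lower by this measure without stimulation, and 17.2% and 19.0% after TNF-α. DESeq2 called Acly, Fasn and Fads1 in both states, 3 of 9, beside 18.2% of all genes without stimulation and 20.4% after TNF-α. The CPM of the knockdowns did not overlap, with GSTM1 KD higher, for 5 of the 9 without stimulation (Acly, Fasn, Elovl6, Scd2 and Fads2; 32.3% of all genes) and for 4 of the 9 after TNF-α (34.7%). With GSTM1 KD lower this held for Fads1, 1 of the 9, in each state (31.2% and 31.9% of all genes). The median log2 fold change of the 9 genes was 0.41 without stimulation and 0.43 after TNF-α, against -0.0020 and -0.011 over all genes tested. This median moved with single libraries, to 0.11 and 0.070 without replicate 1 of control KD, to 0.20 and 0.25 without replicate 2 of GSTM1 KD, and to 0.63 and 0.62 without replicate 2 of control KD.

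**Figure D3:**
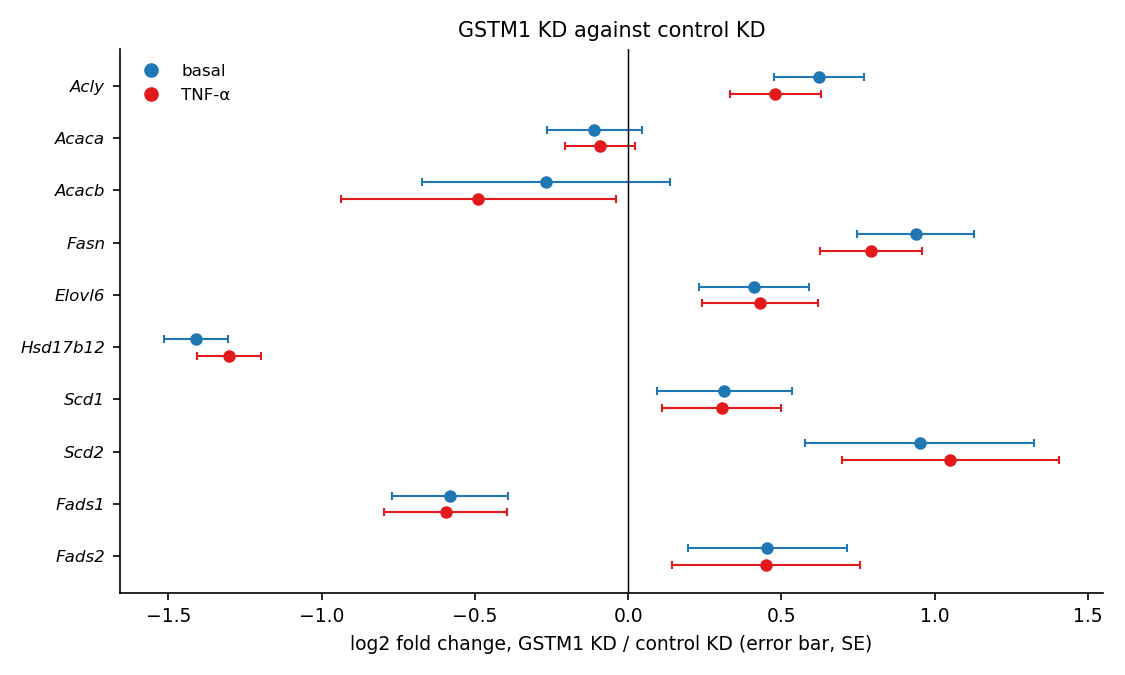
Log2 fold change of GSTM1 KD over control KD (horizontal axis) for the 10 genes without stimulation (blue) and after TNF-α (red); error bars are standard errors from edgeR's fit to the 4 libraries of a state. Fasn lies at 0.94 and 0.79 and Scd2, with wider bars, at 0.95 and 1.05; Hsd17b12, at -1.41 and -1.30, was selected on this difference and is shown as a description.

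No response of these genes to TNF-α was called in either knockdown. Of the 10 genes, 0 passed edgeR's test in control KD, beside 2.63% of all genes, and 0 passed in GSTM1 KD, beside 2.65%, and DESeq2 called 0 in each. At an unadjusted p under 0.05 by edgeR, 0 of the 10 counted in control KD, beside 12.5% of all genes, and 1 in GSTM1 KD, beside 10.9%, which was Hsd17b12. Hsd17b12 was 1.14-fold higher after TNF-α in control KD (log2 fold change 0.19, SE 0.088, adjusted p = 0.45 by edgeR) and 1.25-fold higher in GSTM1 KD (0.32, SE 0.089, adjusted p = 0.162). In both knockdowns its stimulated libraries lay above its basal libraries. The other 9 ran from -0.28 (Scd2, SE 0.44) to 0.27 (Acacb, SE 0.42) as log2 fold changes in control KD, and from -0.16 (Fads1, SE 0.23) to 0.06 (Acacb, SE 0.45) in GSTM1 KD. Fasn was at 0.04 (SE 0.20) and -0.08 (SE 0.20), and Acly at 0.14 (SE 0.16) and 0.03 (SE 0.16). The limits in control KD and the upper limit in GSTM1 KD rest on single libraries. Scd2 was at -0.74 or -0.90 without replicate 1 of basal or replicate 2 of stimulated control KD, and at 0.40 or 0.16 without replicate 2 of basal or replicate 1 of stimulated control KD. For Acacb the same fits gave -0.081, -0.22, 0.69 and 0.67, and no call. In GSTM1 KD, without replicate 1 or replicate 2 of the stimulated libraries, Acacb was at -0.17 or 0.25 and Fasn at 0.12 or -0.32. Each such fit leaves the replicate numbers unbalanced between the states, and deviations of same-numbered control KD libraries correlated at 0.731 between states. Within each replicate number the CPM of Scd2 was lower after TNF-α in both knockdowns, though the numbers are not known to pair cultures. The standard errors above do not let a small response be told from none.

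The difference of the responses, GSTM1 KD minus control KD, was likewise called for 0 of the 10 genes by edgeR, DESeq2 and limma-voom, and 0 of them had an unadjusted p under 0.05 by edgeR, beside 1.92% of all genes. Its log2 values ran from -0.20 (Acacb, SE 0.62) to 0.13 (Hsd17b12, SE 0.13). Fasn stood at -0.12 (SE 0.28) and Scd2 at 0.12 (SE 0.62). Since the control KD responses of Acacb and Scd2 moved with single libraries as given above, their differences move with them. Over all genes, edgeR called 0 of 15332, of which 295 had an unadjusted p under 0.05, and DESeq2 called 24 of 22381.

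**Figure D4:**
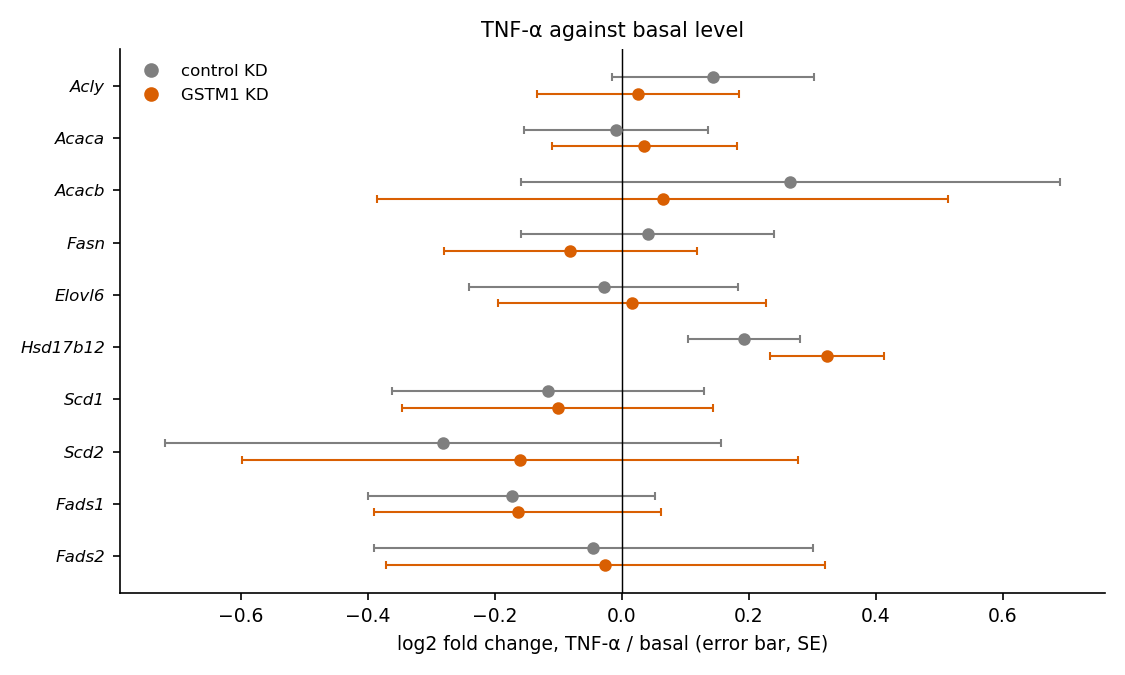
Log2 fold change of TNF-α over the basal level (horizontal axis) for the 10 genes in control KD (grey) and GSTM1 KD (orange); error bars are standard errors from edgeR's fit to all 8 libraries. Hsd17b12, at 0.19 and 0.32, lies farthest from 0 for its standard error, and the other bars cross 0.

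The genes that supply, regulate and assist these enzymes were counted in 7 further lists, in which 56 of 57 genes were matched and 52 passed the filter. At the basal level 3 of the 52 rose (Acss2, Hacd4 and Usf2) and 2 fell (Mecr and Prkaa1) in GSTM1 KD. After TNF-α 4 rose (Acss2, Idh1, Hacd4 and Usf2) and 4 fell (Slc25a1, Mecr, Elovl7 and Prkaa1). Their median log2 fold change was 0.05 in each state. These shares stand beside the 10.2% and 16.2% of all genes. Every one of these calls between knockdowns was lost when either GSTM1 KD library of the state was left out, and Mecr and Usf2 also lost theirs without stimulation with RSEM's effective lengths as offsets (adjusted p by edgeR 0.063 and 0.0712, the highest over the 8 other settings, where the lowest were 0.000299 and 0.00334). A call in 1 state only does not show that the states differ, and the test of the difference of the TNF-α responses is given above. DESeq2 called 12 of these genes without stimulation, beside 18.2% of all genes, and 11 after TNF-α, beside 20.4%.

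Of 6 genes of substrate and NADPH supply, Acss2, which makes acetyl-CoA from acetate, had the largest difference. Acss2 was at 18.8 and 28.3 CPM in control KD and at 61.1 and 82.1 CPM in GSTM1 KD without stimulation, and at 16.5 and 25.7 against 58.6 and 77.9 CPM after TNF-α. Its groups were far apart, with log2 fold changes of 1.61 (SE 0.24, adjusted p = 0.0242 by edgeR) and 1.67 (SE 0.24, adjusted p = 0.0177). Idh1, a cytosolic source of NADPH, was at 50.3 and 71.2 against 92.7 and 109 CPM without stimulation and at 44.3 and 62.6 against 91.3 and 105 CPM after TNF-α. Its log2 fold change was 0.73 (SE 0.19, adjusted p = 0.0664 by edgeR) and then 0.86 (SE 0.18, adjusted p = 0.0345). Without stimulation Idh1 passed in 4 of the 8 other settings (adjusted p from 2.11e-05 to 0.0784), among them DESeq2 (adjusted p = 0.0104). Slc25a1, the mitochondrial citrate carrier that delivers the substrate of Acly, had a log2 fold change of -0.29 (SE 0.098, adjusted p = 0.112 by edgeR) without stimulation and of -0.43 (SE 0.097, adjusted p = 0.0405) after TNF-α.

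In the elongation cycle, 10 of 11 further genes passed the filter. Hacd4, one of the dehydratases that act after Hsd17b12, was at 39.4 and 59.0 CPM in control KD and at 95.2 and 105 CPM in GSTM1 KD without stimulation. Its log2 fold changes were 1.02 (SE 0.20, adjusted p = 0.0377 by edgeR) and 1.13 after TNF-α (SE 0.16, adjusted p = 0.0173). The elongase Elovl7 was at 28.7 and 32.3 CPM in control KD and at 21.7 and 22.0 CPM in GSTM1 KD without stimulation, and at 69.4 and 81.7 against 49.7 and 55.8 CPM after TNF-α. It was called lower in GSTM1 KD after TNF-α (-0.54, SE 0.12, adjusted p = 0.0405 by edgeR) and not without stimulation (-0.48, SE 0.13, adjusted p = 0.0725). Elovl7 also rose after TNF-α, by 2.48-fold in control KD (log2 fold change 1.31, SE 0.12, adjusted p = 0.00309 by edgeR) and by 2.42-fold in GSTM1 KD (1.27, SE 0.12, adjusted p = 0.00285). In control KD the call was lost when only the 4 control KD libraries were fitted (adjusted p = 0.0545, the highest over the 8 other settings, where the lowest was 1.85e-16). Tecr, the reductase of the last step of the cycle, was not called by edgeR (adjusted p = 0.0738 and 0.0941), and DESeq2 called it without stimulation (adjusted p = 0.0351).

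Of 6 measured genes of mitochondrial fatty acid synthesis, Mecr, its enoyl reductase, fell in both states, from 24.4 and 20.1 CPM to 11.9 and 13.0 CPM without stimulation (log2 fold change -0.84, SE 0.17, adjusted p = 0.0394 by edgeR). After TNF-α its log2 fold change was -0.88 (SE 0.15, adjusted p = 0.0229). Among 13 regulators of the SREBP, LXR and ChREBP systems, 12 passed the filter and edgeR called 1 in each state. This was Usf2, a factor that binds E-boxes, at 46.3 and 47.5 CPM against 67.1 and 64.4 CPM without stimulation (0.49, SE 0.099, adjusted p = 0.0401) and 0.51 after TNF-α (SE 0.11, adjusted p = 0.0384 by edgeR). DESeq2 also called Nr1h3 (adjusted p = 0.0446) and Insig1 (adjusted p = 0.0447) without stimulation, both higher in GSTM1 KD. Of 7 genes, 6 subunits of AMPK, the kinase that phosphorylates and inhibits acetyl-CoA carboxylase, and its upstream kinase Stk11, the catalytic subunit gene Prkaa1 fell from 87.8 and 95.6 CPM to 52.1 and 51.5 CPM without stimulation. Its log2 fold changes were -0.82 (SE 0.10, adjusted p = 0.0190 by edgeR) and -0.75 (SE 0.098, adjusted p = 0.0146).

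No gene passed edgeR's test in either state among the partners of the carboxylase and synthase, of which 5 of 6 passed the filter, or among further desaturases and their electron donors, of which 6 of 7 did. The most abundant of the first list, Mid1ip1, which promotes polymerisation of acetyl-CoA carboxylase, stood at -0.34 (SE 0.11) and -0.45 (SE 0.13) on the log2 scale, and passed edgeR's test after TNF-α without replicate 1 of control KD (-0.57). Acot7, an acyl-CoA thioesterase, stood at -0.39 (SE 0.17) and -0.34 (SE 0.13). Without replicate 1 of control KD Acot7 stood at -0.16 and -0.22, and without replicate 2 of control KD at -0.60 and -0.45, where it passed edgeR's test. Of the second list, Cyb5r3, the cytochrome b5 reductase that passes electrons to desaturases, stood at 0.34 (SE 0.14) and 0.33 (SE 0.15). Cyb5r3 moved to 0.20 and 0.18 without replicate 1 of control KD and to 0.47 and 0.51 without replicate 2 of control KD, where it passed edgeR's test. Cyb5a, which carries those electrons, stood at 0.02 (SE 0.12) and 0.12 (SE 0.11), and with a library left out at -0.086 to 0.11 and 0.025 to 0.22, with no call. Of the second list, DESeq2 called 1 gene lower and 1 higher in GSTM1 KD in both states. Fads3 was lower (log2 fold change -0.60 and -0.67, adjusted p = 0.0310 and 0.0122 by DESeq2). Cyb5b was higher (0.41 and 0.40, adjusted p = 0.0281 and 0.0263 by DESeq2). By edgeR Cyb5b missed the threshold at 0.0665 and 0.0503, and it passed in 4 of the 8 other settings without stimulation (0.0107 to 0.0686) and in 7 of the 8 after TNF-α (0.0136 to 0.0547). Of the first list DESeq2 called Thrsp without stimulation (adjusted p = 0.0287) and Mid1ip1 after TNF-α (adjusted p = 0.0449). By edgeR the log2 fold changes of Thrsp were 1.14 (SE 0.30, adjusted p = 0.0675) and 1.25 (SE 0.39, adjusted p = 0.081).

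**Figure D5:**
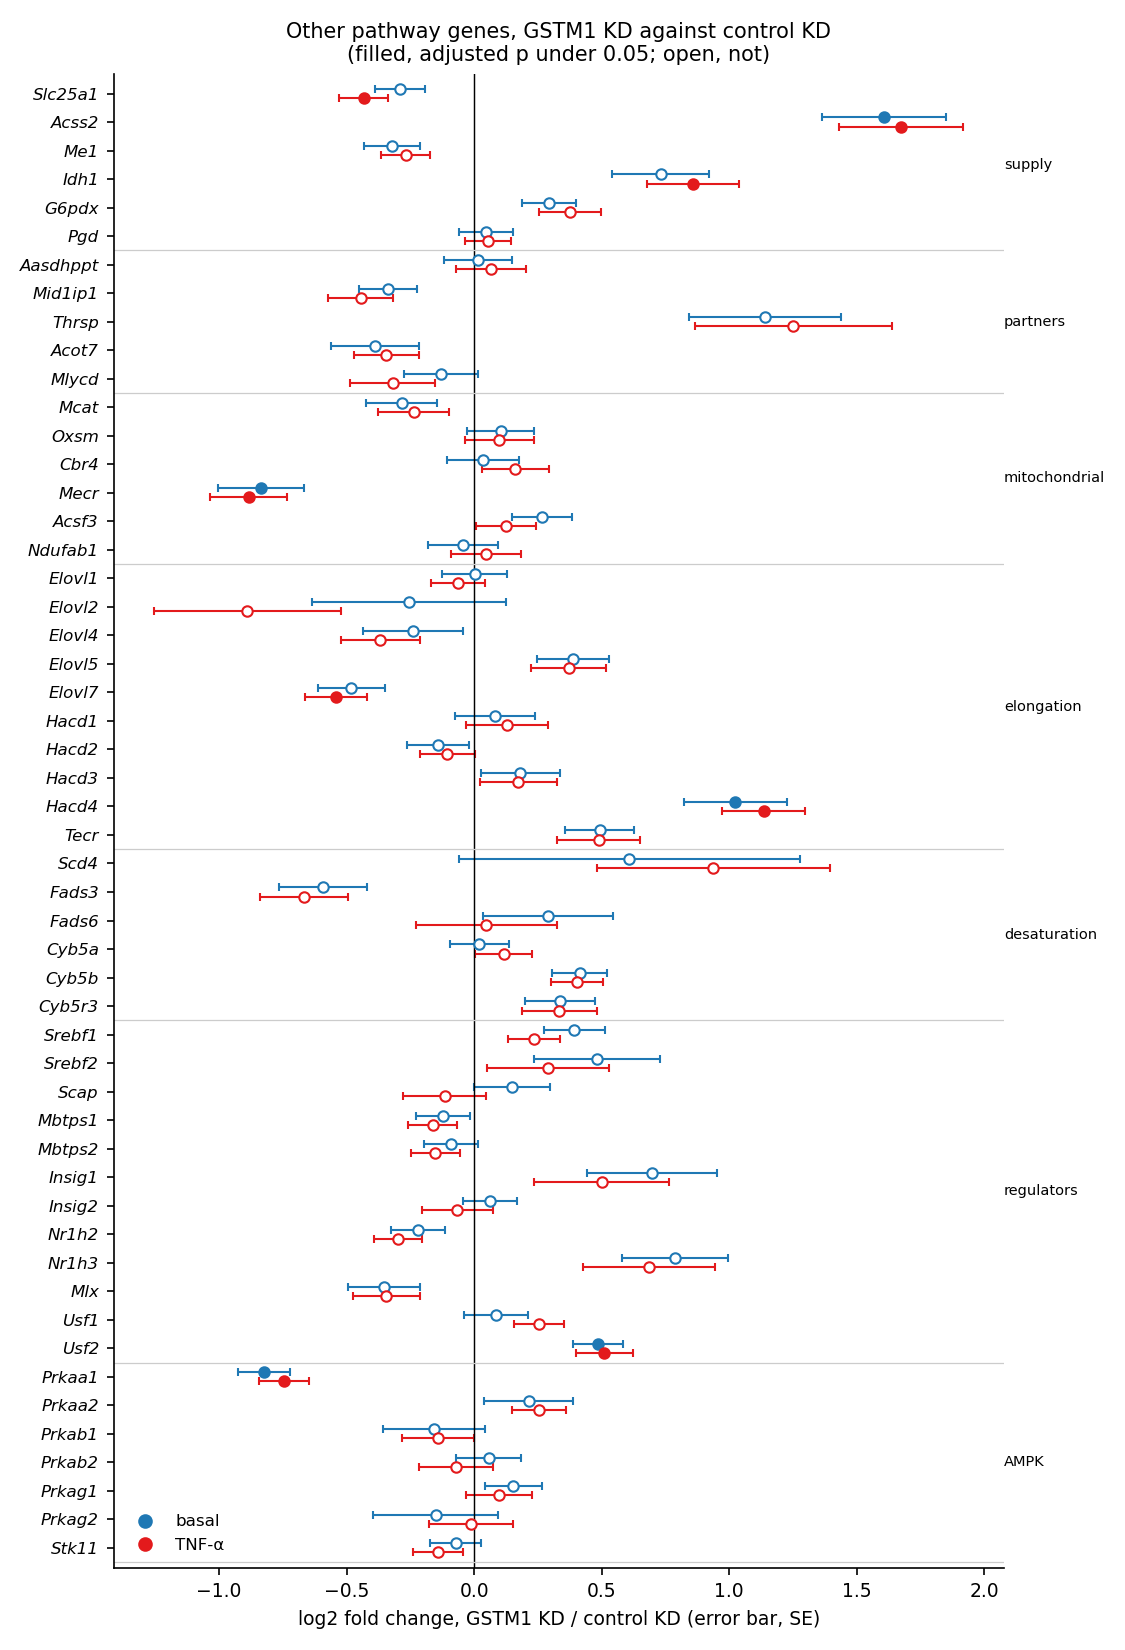
Log2 fold change of GSTM1 KD over control KD (horizontal axis) for the other pathway genes that passed the filter, grouped by list, without stimulation (blue) and after TNF-α (red); error bars are standard errors from edgeR's fit and filled points passed the test. Acss2, Hacd4 and Thrsp lie to the right at 1.02 or above in both states, Thrsp without passing the test. Mecr and Prkaa1 lie to the left at -0.75 or below.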

How the data were processed

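Total RNA of primary astrocytes was sequenced as directional, paired-end libraries. The authors mapped reads to GRCm38 with STAR (2.5.4b) and quantified genes with RSEM (1.3.0). The deposited expected counts are not normalized and were rounded here. The deposited TPM values, scaled by the authors with RSEM to one total per library, were used for levels and ratios only. The deposited effective lengths, in bases, come from the same run. The annotation release and the use of strand in counting are not given in the sources used here.

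edgeR (4.0.16, R 4.3.3) gave TMM factors, filterByExpr, and its quasi-likelihood F-test, whose p-values were adjusted over all genes (Benjamini-Hochberg) and called at 0.05. The 4 libraries of a state were fitted for knockdown, and all 8 for TNF-α and the interaction. Standard errors come from the fold change and the F statistic. Totals of 17349682 to 34434615 counts make 3 counts equal to 0.0871 to 0.173 CPM. The code was tested on simulated data. With 2 libraries a group no rank or permutation test between 2 groups can pass 0.05. DESeq2 (1.42.0), limma (3.58.1), other scalings and filters, effective length offsets, a replicate block and leaving out each library were alternatives.

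The 10 genes and the lists were chosen with earlier results of these data known. All 10 genes and Gstm1 are named, with every other pathway gene past the threshold between knockdowns, and the 2 most abundant genes of a list with none. Gene positions come from GENCODE M21 (GRCm38), promoters from RefSeq, and shared 100-base words from the GENCODE transcripts. One listed gene, Hsd17b8, was not matched. A further list set beside the 10 genes, of cholesterol synthesis and uptake, is not reported here.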

Additional observations from a re-analysis of the deposited data

How the results depend on the processing

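Of the 9 genes tested between knockdowns, edgeR called 1 in each state. At the basal level the count was 3 with DESeq2, 2 with library size only, 5 with no filter on low counts, 2 with all 8 libraries in the fit, and 0 to 6 when a library was left out. After TNF-α it was 3 with DESeq2, 6 with no filter and 0 to 6 when a library was left out. It was 0 without either GSTM1 KD library of a state, and 6 without replicate 2 of control KD. The other pathway genes called, 5 without stimulation and 8 after TNF-α, became 12 (DESeq2), 15 (no filter), 3 (effective length offsets), 10 (all 8 libraries) and 0 to 23 (a library left out) without stimulation. After TNF-α they became 16 (no filter) and 0 to 20 (a library left out). Calls of the TNF-α response and of the difference of responses stayed at 0 of 10 under every alternative run. The direction reversed for Acaca without replicate 1 of GSTM1 KD (range with a library left out -0.30 to 0.054 without stimulation and -0.20 to 0.027 after TNF-α, on the log2 scale) and for Acacb without replicate 2 of control KD (-0.61 to 0.14 and -0.89 to 0.013). The causes of these changes were not tested.

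The replicate number as a block raised the count among the 9 to 7 without stimulation (all but Acaca and Acacb, so that all 4 desaturases passed) and 5 after TNF-α (Acly, Elovl6, Fads1, Fasn and Scd2), and the other pathway genes called to 22 and 17. Over all genes the block raised the calls from 1524 to 4712 of 14899 tested without stimulation, and from 2360 to 4302 of 14593 after TNF-α. Across 15332 genes, deviations of same-numbered libraries correlated at 0.369 between the knockdowns without stimulation and at 0.290 after TNF-α, and between the states at 0.731 in control KD and at 0.510 in GSTM1 KD, a hint from the data, since with 2 pairs the numbers are not known to pair cultures.

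Acacb had the lowest depth of the 10 genes, 15 to 38 counts in a library, and whether depth limits its call was not tested. Over all genes, DESeq2 called 2492 and 2824, no filter gave 3957 and 4540, all 8 libraries gave 2762 without stimulation, and leaving out a library gave 1 to 5256 and 0 to 5028. The highest counts with a library left out came without replicate 2 of control KD, on 15352 and 15274 genes tested. Where a group keeps 1 library, that library is assumed to vary like the other group. DESeq2 tested 13695 and 13840 genes, the fits with no filter 24716 and 24134, and the fit of all 8 libraries 15332. Without stimulation, library size only gave 1654 calls and effective length offsets 1337, each of 14899 genes tested. TNF-α responses over all genes, 403 in control KD and 406 in GSTM1 KD, became 739 and 630 (DESeq2), 1255 and 1050 (no filter), 988 and 808 (replicate block), 72 and 691 (the 4 libraries of that knockdown), and 180 to 313 and 74 to 444 (a library left out).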

Other observations

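Fatty acid oxidation, the opposite pathway, had 1 of 18 genes higher and 0 lower in each state, with medians of 0.13 and 0.15 on the log2 scale. The gene that rose was Cpt1c, a brain form of carnitine palmitoyltransferase with little enzymatic activity, at 86.3 and 107 CPM in control KD, against 149.8 and 163 CPM in GSTM1 KD without stimulation (0.69, SE 0.14, adjusted p = 0.0389 by edgeR). Of all genes, 4.60% rose without stimulation and 7.26% after TNF-α, and when either GSTM1 KD library was left out at most 3 of all genes passed without stimulation and at most 94 after TNF-α. No gene of the list was called in response to TNF-α in either knockdown. Whether this list differs from the 10 genes was not tested.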
